A study of Mus musculus with 12 samples.

Results

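H3K4me3 was compared between 2 mouse melanoma cell lines, the Kmt2d mutant line 493 and the wild-type (WT) line 971. The peaks compared were those on chromosomes 1 to 19 and X, 17982 in the mutant and 23154 in the WT list, together 41136 of the 134047 peaks in the 8 lists of the series. Both lines were labelled as melanoma and grown in DMEM/F12 with serum, the same Abcam antibody was used for H3K4me3 in both, and peaks of each line were called against its own input. H3K4me1, H3K27ac and H3K27me3 were profiled in the same lines. There was 1 library per line and mark, and each genotype was represented by 1 line, so genotype and line cannot be told apart and no difference below has a replicate check or a test. The labels used here do not say how the mutation was made or from which tumour, animal or strain either line came.

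Trimethylation of lysine 4 on histone H3 marks the nucleosomes around active transcription starts. It is placed by SET1 and by KMT2A and KMT2B, in complexes that share the subunits WDR5, RBBP5, ASH2L and DPY30, and CXXC zinc fingers bring several of these enzymes to unmethylated CpG islands. KMT2D mainly places H3K4me1 at enhancers. Starts of silent developmental genes can carry H3K4me3 and the Polycomb mark H3K27me3 together, a state called bivalent.

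Promoter sequences are shown for 7 genes with large differences of H3K4me3 between the lists, to let the CpG content described below be seen. Nkain2, Ston1 and Mtap were among the highest-scoring genes of the WT line alone, Klhl1, S1pr3 and Irx2 were among those leading in the mutant line alone, and Gpnmb had a wider peak in the mutant line. Each run holds the 250 bases before the annotated start on the gene's strand, from the RefSeq promoter table of GRCm38.p6, written 5′ to 3′ with CpG dinucleotides in capitals.
Nkain2 (chr10:32889916-32890165, minus strand): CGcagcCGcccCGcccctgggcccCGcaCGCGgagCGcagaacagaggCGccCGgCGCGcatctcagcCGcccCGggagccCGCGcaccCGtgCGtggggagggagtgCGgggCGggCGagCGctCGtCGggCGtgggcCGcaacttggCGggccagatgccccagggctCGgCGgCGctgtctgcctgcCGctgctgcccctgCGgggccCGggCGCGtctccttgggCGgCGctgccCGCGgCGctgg
Ston1 (chr17:88626305-88626554, plus strand): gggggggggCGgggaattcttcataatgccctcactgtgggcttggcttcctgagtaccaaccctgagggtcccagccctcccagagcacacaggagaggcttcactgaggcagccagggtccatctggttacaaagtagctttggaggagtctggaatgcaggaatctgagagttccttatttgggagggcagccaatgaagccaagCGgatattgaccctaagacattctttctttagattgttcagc
Mtap (chr4:89137120-89137369, plus strand): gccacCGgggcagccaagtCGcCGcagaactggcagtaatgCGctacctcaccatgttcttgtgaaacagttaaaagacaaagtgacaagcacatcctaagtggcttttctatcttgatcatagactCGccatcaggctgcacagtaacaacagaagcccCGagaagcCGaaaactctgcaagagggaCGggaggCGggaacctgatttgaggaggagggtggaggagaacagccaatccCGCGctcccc
Klhl1 (chr14:96519035-96519284, minus strand): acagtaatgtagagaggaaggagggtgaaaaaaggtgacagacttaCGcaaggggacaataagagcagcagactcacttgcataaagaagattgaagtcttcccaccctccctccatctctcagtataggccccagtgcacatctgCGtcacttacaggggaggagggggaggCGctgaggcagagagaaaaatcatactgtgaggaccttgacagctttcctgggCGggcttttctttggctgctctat
S1pr3 (chr13:51408368-51408617, plus strand): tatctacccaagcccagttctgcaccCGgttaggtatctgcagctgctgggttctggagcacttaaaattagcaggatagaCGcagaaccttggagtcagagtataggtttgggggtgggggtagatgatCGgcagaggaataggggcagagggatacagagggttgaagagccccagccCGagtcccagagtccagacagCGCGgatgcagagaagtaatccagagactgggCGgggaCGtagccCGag
Irx2 (chr13:72628570-72628819, plus strand): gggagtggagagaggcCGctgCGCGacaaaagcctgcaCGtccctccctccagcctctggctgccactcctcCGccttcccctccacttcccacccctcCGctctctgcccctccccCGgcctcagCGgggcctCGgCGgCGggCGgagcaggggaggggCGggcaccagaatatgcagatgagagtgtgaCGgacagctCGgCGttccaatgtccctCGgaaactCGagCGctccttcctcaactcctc
Gpnmb (chr6:49036268-49036517, plus strand): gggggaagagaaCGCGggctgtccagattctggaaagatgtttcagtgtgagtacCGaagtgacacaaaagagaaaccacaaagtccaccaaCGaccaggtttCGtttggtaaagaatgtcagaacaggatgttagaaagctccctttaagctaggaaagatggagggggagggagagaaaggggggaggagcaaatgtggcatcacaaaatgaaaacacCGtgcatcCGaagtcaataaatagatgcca
In these windows Nkain2 held 39 CpG dinucleotides, Mtap 11 and Ston1 2, while Irx2 held 19, S1pr3 9, Gpnmb 7 and Klhl1 4. Genes marked in 1 line alone therefore included CpG-dense and CpG-poor promoters on both sides.

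The mutant list was shorter, and most of the difference lay away from gene starts. The mutant list held 77.7 peaks per 100 of the WT list (95% interval 76.2 to 79.2, counting error only). Peaks were placed by the starts and bodies of protein-coding and lncRNA genes, while the counts by gene below are of protein-coding genes only. A peak was at a gene start if within 1 kb of an annotated start, or of either gene end where none was annotated. At gene starts the lists held 13224 WT and 12851 mutant peaks, or 97.2 per 100 (94.8 to 99.6). Inside gene bodies they held 6866 and 3141 peaks, or 45.7 per 100 (43.9 to 47.7), and between genes 3064 and 1990, or 64.9 per 100 (61.4 to 68.7). H3K4me3 covered 46.7 Mb in the WT and 40.0 Mb in the mutant line, 85.7 per 100, and the median peak was 1609 bp wide in the WT and 1976 bp in the mutant list. Scores are the authors' own for each peak, and the exact value 3100 recurred in 4304 WT and 3223 mutant peaks, so equal scores of 3100 do not show equal signal. The mutant list held fewer weak peaks, with 12.2% of its peaks under a score of 100 against 20.3% of the WT list. Sequencing depth is unknown from the sources used here, and its part in the list lengths was not tested. By chromosome the number of mutant peaks per 100 WT peaks ran from 71.4 on chromosome 18 to 90.7 on X, so fewer mutant peaks were listed on each of the 20 chromosomes.

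Most mutant peaks had a WT counterpart, while 27.8% of the WT peaks had none in the mutant list. Of the WT peaks 72.2% (71.7% to 72.8%) shared at least 1 bp with a peak of the mutant list, and of the mutant peaks 91.8% (91.4% to 92.2%) did so with the WT list. In lists of equal length these shares were 86.2% and 87.3%. Equal lengths make such shares nearly equal by construction, so they do not show what list length contributed to the gap. The 6428 WT peaks without a counterpart were weak and narrow, with a median score of 89.3 and a median width of 685 bp, and so were the 1477 mutant ones, with 93.7 and 779 bp. Of the WT peaks without a counterpart, 65.3% lay in gene bodies and 11.8% at gene starts, against 38.7% and 34.5% of the mutant ones. At gene starts the peaks of 1 line alone stood at 67.3 mutant per 100 WT, and in gene bodies at 13.6 per 100.

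Score alone did not order the WT peaks by whether they had a counterpart. Among WT peaks with a score of 150 to 300, 80.7% (77.8% to 83.4%) of those at gene starts had a mutant counterpart, against 42.4% (39.7% to 45.1%) in gene bodies and 66.3% (62.6% to 69.8%) between genes. The mutant peaks of the same scores did not show this order, at 84.9% (82.1% to 87.3%), 84.7% (81.6% to 87.3%) and 85.7% (82.3% to 88.6%). The intervals of the 3 places overlapped in the mutant list and were apart in the WT list. Of the WT peaks without a counterpart, 31.5% lay within 5 kb of a WT peak that had one, and of the mutant peaks without a counterpart 21.3% did so.

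**Figure D1:**
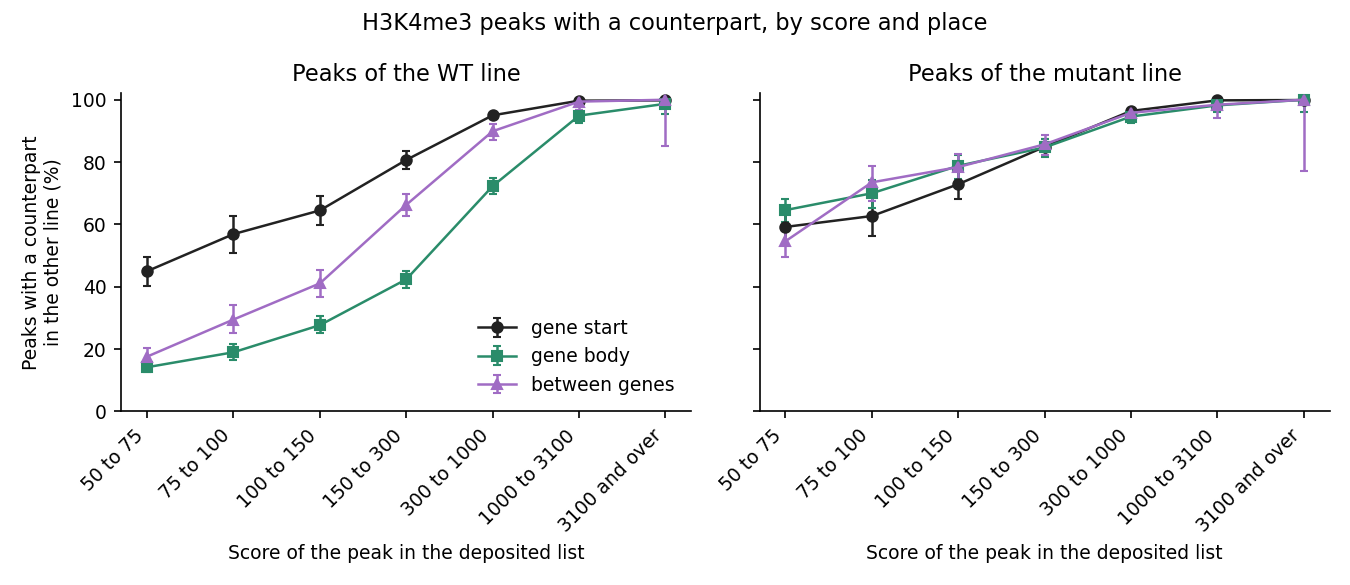
Share of H3K4me3 peaks with an overlapping peak in the other line (y axis, %) by the score class of the peak (x axis), for WT peaks (left) and mutant peaks (right). Points are shares at gene starts, in gene bodies and between genes, and bars are 95% Wilson intervals. At scores of 150 to 300 the WT shares were 80.7%, 42.4% and 66.3% and the mutant shares 84.9%, 84.7% and 85.7%.

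Other marks differed at the peaks of 1 line alone, with H3K4me1 taken from the same line and H3K27me3 from the WT line only. In the WT line 30.4% (29.3% to 31.5%) of the H3K4me3 peaks without a mutant counterpart overlapped a WT H3K4me1 peak, against 10.0% (9.59% to 10.5%) of those with one. At scores of 100 to 300 these shares were 31.1% and 7.52%, so the gap was as wide among peaks of like score, though not of like place. By place at these scores they were 37.1% and 12.6% in gene bodies, 21.1% and 2.89% at gene starts, and 19.4% and 7.31% between genes. The order held in each place and the gap was narrowest between genes. In the mutant line the order was the opposite, with 1.29% of the mutant peaks without a counterpart overlapping mutant H3K4me1, against 9.91% (9.47% to 10.4%) of those with one. At scores of 100 to 300 these mutant shares were 1.49% (0.757% to 2.91%) and 4.93% (4.14% to 5.87%), a smaller gap. The H3K4me1 lists were of unequal length, 17373 WT and 3649 mutant peaks, and what that contributes was not tested. At gene starts, WT H3K27me3 lay under 26.3% (22.7% to 30.3%) of the mutant peaks without a counterpart and 7.19% (6.75% to 7.66%) of those with one. Among mutant start peaks with scores of 100 to 300 these shares were 29.5% (23.8% to 35.9%) and 22.9% (20.3% to 25.8%), intervals that overlap, and at scores of 300 and over they were 25.6% (17.5% to 35.7%) and 5.71% (5.30% to 6.16%), which are apart. For WT start peaks the order depended on score. Over all scores 9.13% (7.28% to 11.4%) of those without and 7.12% (6.68% to 7.59%) of those with a counterpart lay under WT H3K27me3, at 100 to 300 7.72% (5.15% to 11.4%) and 26.6% (23.8% to 29.6%), and at 300 and over 6.03% and 5.19%.

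Counted by gene, more starts were marked in the mutant line alone than in the WT line alone. Of 21631 protein-coding genes, 12248 had an H3K4me3 peak within 1 kb of the start in both lines, 273 (1.26%) in the WT line alone, 361 (1.67%) in the mutant line alone, and 8749 had no listed peak there in either. Of the genes marked in at least 1 line, 2.12% were marked in the WT and 2.80% in the mutant line alone. In lists of equal length the counts were 168 for the WT and 558 for the mutant line, so the size of this difference depends on the length of the lists. A missing peak is only that, since a few genes that most cells use, such as the 14-3-3 gene Ywhaz, had no listed peak near the start in either line. Starts marked in 1 line alone had weak peaks, with a median score of 141 in the WT and 137 in the mutant line, against 2730 and 2344 where both lines were marked. On chromosome 10 the mutant line alone had 23 such genes and the WT line alone 6, on chromosome 19 there were 18 and 4, and on X 18 and 7.

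Starts of the mutant line alone and of the WT line alone differed in sequence and in other marks. Promoters of 300 bases, from 250 before to 50 after the start, matched 17274 of the genes. Their median ratio of observed to expected CpG was 0.781 where both lines had H3K4me3, 0.555 for the mutant line alone, 0.346 for the WT line alone and 0.196 where neither had a peak, beside 0.573 over all. A ratio of at least 0.6 was found in 43.6% (38.1% to 49.4%) of the promoters of the mutant line alone and 23.8% (18.4% to 30.3%) of those of the WT line alone. The order held among peaks with scores under 100, with medians of 0.543 and 0.365, and among those of 100 and over, with 0.563 and 0.330. The TATA box letters TATAAA, searched on the gene strand, stood in 7.77% of the promoters of the WT line alone, 6.87% of those of the mutant line alone, 4.07% where both lines were marked and 8.98% of all. The AP-1 letters TGACTCA, on both strands, stood in 7.77%, 4.12%, 3.06% and 4.64% of these groups. The E-box letters CACGTG, a palindrome that itself holds a CpG, stood in 6.74%, 6.19%, 10.2% and 7.84%. The motif intervals of the WT and the mutant line alone overlapped for all 3. A WT H3K27me3 peak lay within 1 kb of 34.9% (30.2% to 40.0%) of the starts of the mutant line alone, 24.2% (19.5% to 29.6%) of those of the WT line alone and 7.72% of those of both lines. WT H3K4me1 lay at 15.8% (11.9% to 20.5%) of the starts of the WT line alone and 1.66% (0.764% to 3.58%) of those of the mutant line alone. H3K27ac was listed at few starts of the mutant line alone, 4.99% in the mutant and 2.49% in the WT line, and at 34.3% and 50.2% of the starts marked in both. Starts marked in both lines had far higher scores, so these shares of marks are not matched for score. Among mutant start peaks with scores of 100 to 300, mutant H3K27ac lay under 9.91% with and 2.76% without a counterpart. WT H3K27me3 lay under 22.9% and 29.5% of these, and under 26.6% and 7.72% of the WT start peaks of such scores.

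**Figure D2:**
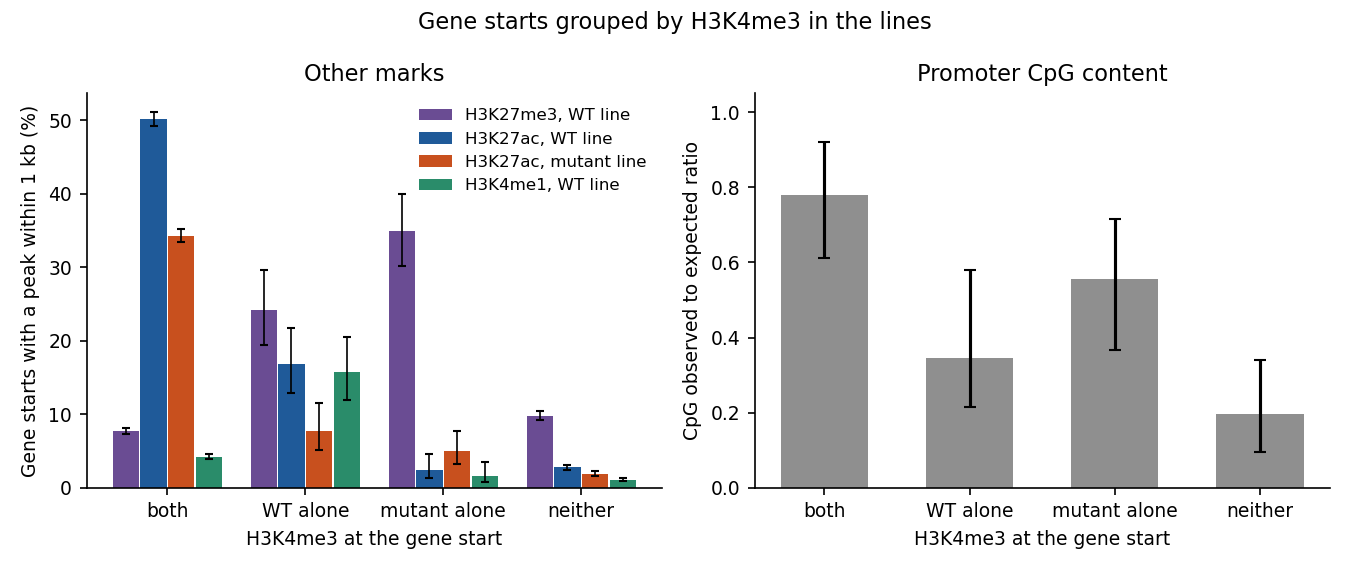
Gene starts grouped by H3K4me3 in both lines, the WT line alone, the mutant line alone or neither. Left, share of starts with a peak of another mark within 1 kb (%, bars with 95% Wilson intervals). Right, median ratio of observed to expected CpG in the 300-base promoter, with the quartiles as error bars. WT H3K27me3 was at 34.9% of the starts of the mutant line alone and WT H3K4me1 at 15.8% of those of the WT line alone, and the CpG medians were 0.781, 0.346, 0.555 and 0.196.

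Kmt2d itself, on chromosome 15, had H3K4me3 over its start in both lines. The peak was 6.72 kb wide in the WT line (98866950 to 98873674) and 6.45 kb in the mutant line (98866949 to 98873393), each with a score of 3100. A peak at the start does not read the mutation, so it is no check of the labels.

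Of the starts of the WT line alone, 5 peaks shared the score of 3100, which gives no order among them. The widest of these was at Nkain2, which encodes a protein that interacts with the sodium pump, with 11.9 kb on chromosome 10 (32879702 to 32891597). Ston1, for the endocytic adaptor stonin 1, had a WT peak of 6.13 kb, and Mtap, for the methionine salvage enzyme, one of 5.999 kb. Pcolce, an enhancer of procollagen processing, shared a WT peak of 5.17 kb with its neighbour Fbxo24. Emilin1, an elastic fibre glycoprotein, had 2.73 kb with a score of 2607, and Fbln2, the matrix protein fibulin 2, had 3.35 kb with 2029. The remaining genes were 1700037H04Rik, Cdsn, for corneodesmosin, Dmpk, the kinase gene of myotonic dystrophy, and Slitrk1, a synaptic adhesion gene. Of these 10 WT peaks 5 overlapped WT H3K27ac, 3 WT H3K4me1 and none WT H3K27me3. Among the 116 WT start peaks without a counterpart at scores of 300 and over these shares were 35.3%, 33.6% and 6.03%, so the counts are near them. Within 2.5 kb of the start a mutant peak was listed at Cdsn and at Fbxo24.

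In the mutant line alone 2 starts shared the score of 3100. Klhl1, a brain-expressed kelch protein gene, had a peak of 5.94 kb on chromosome 14 (96513286 to 96519227). S1pr3, a sphingosine 1-phosphate receptor, was the other, with 5.14 kb. Sox10, the neural crest transcription factor that melanocytes and Schwann cells need, had one of 6.66 kb, and Lgi4, a secreted ligand for peripheral glia, one of 4.73 kb that did not reach a gene end itself. Tenm4, a teneurin of the cell surface, had 4.18 kb and Irx2, an Iroquois homeobox gene, 3.21 kb. Cacna2d1, a calcium channel subunit, had 3.26 kb and Kcnc2, a potassium channel, 1.73 kb, and Psd3 and Tlr6, a Toll-like receptor, completed the 10. Of these 10 mutant peaks none overlapped H3K4me1 of either line, 3 overlapped mutant H3K27ac, 1, at Sox10, WT H3K27ac, and 2, at Sox10 and Cacna2d1, WT H3K27me3. Among the 86 mutant start peaks without a counterpart at scores of 300 and over, 0% overlapped mutant and 1.16% WT H3K4me1, 10.5% mutant and 3.49% WT H3K27ac, and 25.6% WT H3K27me3.

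Shared peaks were on the whole slightly narrower in the mutant line. In each pair of widths or covered lengths given from here on, the WT line comes first and the mutant line second. Among 14522 peaks paired one to one, the median width was 2.26 and 2.12 kb, and the median ratio of mutant to WT width was 0.961 (0.958 to 0.963). The mutant peak was narrower in 60.3% of pairs. The ratio was 0.964 at gene starts and 0.917 in gene bodies. It was lower for wide WT peaks, at 0.892 for those over 6 kb, and was 1.14 for those of up to 1 kb. Classes set by WT width favour such an order, and among pairs with a mutant width over 6 kb the ratio was 0.977 (0.963 to 0.992), still under 1. Around annotated starts covered by 1 peak pair, the upstream edge lay a median of 0.812 and 0.783 kb away and the downstream edge 1.75 and 1.67 kb.

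**Figure D3:**
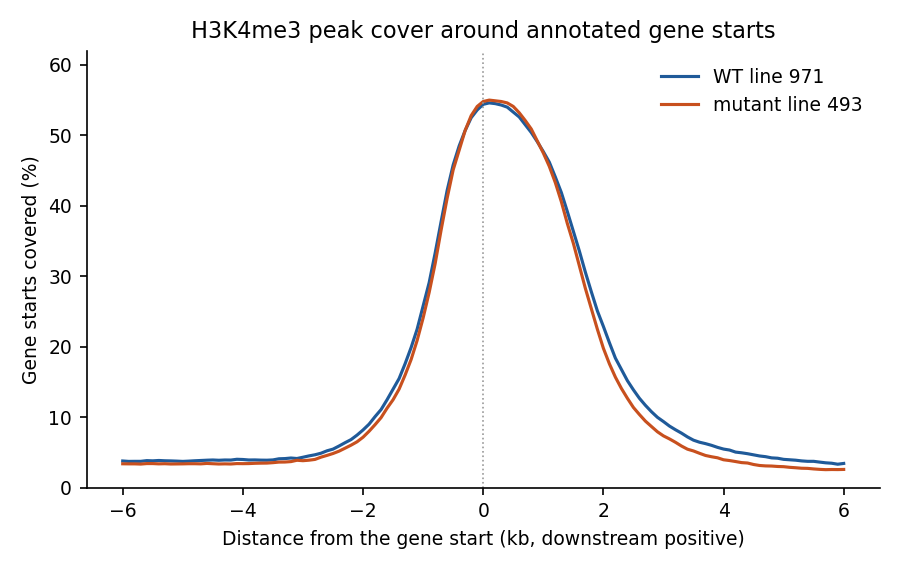
Share of the 17274 annotated protein-coding gene starts covered by an H3K4me3 peak (y axis, %) by distance from the start (x axis, kb, downstream positive) in each line. The curves lie together just after the start, at 54.0% in the WT and 54.6% in the mutant line 0.4 kb downstream, and part on the downstream flank, at 25.1% and 22.5% at 1.9 kb.

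Paired peaks that overlapped H3K4me1 of the WT line had lower width ratios than the others, except among the narrowest. Among WT peaks of 1 to 2 kb the median width ratio was 0.718 (0.668 to 0.812) where WT H3K4me1 overlapped the peak and 0.975 (0.966 to 0.983) where it did not, and among those over 6 kb it was 0.805 (0.756 to 0.853) and 0.934 (0.903 to 0.952). For peaks of up to 1 kb the ratios were 1.17 (1.00 to 1.29) and 1.14 (1.12 to 1.16), whose intervals overlap. With H3K27me3 of the WT line the difference ran the other way, at 1.36 (1.28 to 1.45) with and 1.12 (1.09 to 1.13) without it for peaks of up to 1 kb, and 1.04 (1.02 to 1.06) and 0.955 (0.947 to 0.963) for 1 to 2 kb. For WT H3K27ac the ratios over 6 kb were 0.893 (0.875 to 0.925) with and 0.891 (0.804 to 0.919) without it. For mutant H3K27ac they were 0.929 (0.900 to 0.946) with and 0.819 (0.769 to 0.861) without it, intervals that are apart. With H3K4me1 of the mutant line the ratio over all widths was 0.949, and without it 0.962, while in the class of 2 to 4 kb the order was reversed, 0.966 (0.955 to 0.978) with and 0.949 (0.945 to 0.953) without it.

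**Figure D4:**
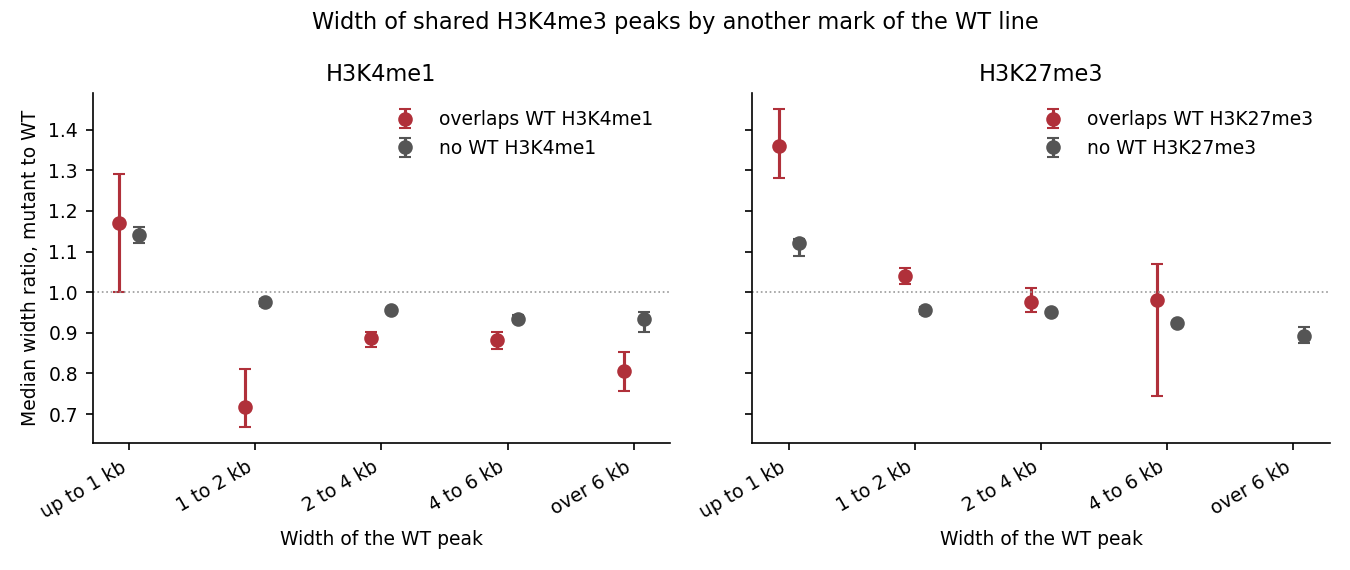
Median ratio of mutant to WT width of paired H3K4me3 peaks (y axis) by width of the WT peak (x axis), with and without an overlapping WT H3K4me1 peak (left) or WT H3K27me3 peak (right). Bars are 95% intervals of the median over peaks of these libraries and the dotted line is an equal width. With WT H3K4me1 the ratio was 0.718 at 1 to 2 kb and 0.805 over 6 kb, and with WT H3K27me3 it was 1.36 up to 1 kb, where no WT peak over 6 kb overlapped that mark.

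Among peaks paired one to one, the largest losses of width at gene starts were at Cxxc5, a CXXC zinc finger gene, with 11.7 and 3.62 kb, and at Itga3, the integrin alpha 3 chain, with 7.98 and 1.44 kb. Vgll3, a cofactor of TEAD factors, had 11.5 and 5.38 kb. Adgra2, an adhesion receptor, had 8.85 and 3.43 kb, and Zmynd8, a chromatin reader, 8.36 and 3.28 kb. Slc7a5, the large neutral amino acid transporter, had 8.88 and 4.29 kb, and a peak at the starts of Arhgap26 and Spry4, a feedback inhibitor of receptor kinase signalling, 11.7 and 7.23 kb. Inava, Elmo2 and Lasp1, an actin-binding protein gene, completed the 10, with mutant peaks of 2.60 to 3.60 kb. The WT peak overlapped WT H3K4me1 at 9 of these 10, all but Vgll3, and WT H3K27ac at 8. Among all paired WT peaks over 6 kb, 40.3% overlapped WT H3K4me1 and 83.8% WT H3K27ac, so the second count is at the share of peaks of that width.

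The largest gains of width among such pairs were led by 4 transcription factor genes. Emx2, a forebrain homeobox gene, had 2.04 and 6.76 kb, and Isl1, a LIM homeobox gene, 1.32 and 5.15 kb. Rorb, a nuclear receptor, had 2.99 and 6.70 kb, and Sox9, a neural crest and cartilage factor, 4.47 and 7.85 kb. Nptx1, a neuronal pentraxin, had 3.58 and 6.94 kb. Gpnmb, a melanosome glycoprotein, had 1.02 kb with a score of 255 in the WT and 4.38 kb with a score of 3100 in the mutant line. Nkd2, an inhibitor of Wnt signalling, had 1.19 and 4.44 kb, and Edil3, Mab21l1 and Xylt1 completed the 10. None of these WT peaks overlapped H3K4me1 of either line, and 4, at Emx2, Isl1, Nptx1 and Nkd2, overlapped WT H3K27me3. Over all pairs, which are not matched to these 10 for width, WT H3K4me1 lay under 9.79%, so none of 10 is near that share. WT H3K27me3 lay under 7.34% of all pairs, a share that differed by WT width. It was 14.0% up to 1 kb, 14.3% at 1 to 2 kb, 2.80% at 2 to 4 kb, 0.713% at 4 to 6 kb and 0% over 6 kb.

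Broad domains, of at least 4 kb, numbered 2207 in the WT and 1737 in the mutant line, and lay at a gene start in 93.1% and 95.3%. Of the WT domains 66.2% (64.2% to 68.1%) met a mutant domain of 4 kb or more, 720 met only a narrower mutant peak and 27 met none. Of the mutant domains 84.1% (82.3% to 85.7%) met a WT domain of 4 kb or more, 271 met only a narrower peak and 6 met none. The widest WT domain, 38.6 kb on chromosome 15 (85652592 to 85691192), overlapped no protein-coding, lncRNA or miRNA gene of the table, and the widest mutant domain, 25.4 kb, lay within it. Zeb2, a transcription factor of the neural crest, had 24.6 and 17.9 kb. Plec, for the cytolinker plectin, had 22.4 kb in the WT line and no mutant peak over 10.9 kb, and Lmna, for lamin A, 16.7 and 12.1 kb. The fifth WT domain lay over Aopep, with 16.2 and 14.9 kb. Nr2f2, an orphan nuclear receptor, had a mutant domain of 17.8 kb, where the widest WT peak was 12.1 kb wide. The fifth mutant domain, 15.3 kb beside a WT peak of 14.6 kb, lay over C130071C03Rik and Mir9-2, a precursor of the neural microRNA miR-9, whose mature strand from RefSeq is shown with its seed in capitals.
mmu-miR-9-5p (chr13:83738821-83738843, plus strand): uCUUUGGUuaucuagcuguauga

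Runs of consecutive peaks without a counterpart lay at a few loci. The longest in the WT list held 21 peaks over 568 kb of chromosome 4, across Mtap and the genes of the cell cycle inhibitors Cdkn2a and Cdkn2b. The median score of these peaks was 98.3. At the starts of Cdkn2a and Cdkn2b no peak was listed in either line, and 0 kb was covered within 5 kb in both. In that span no mutant H3K4me3 peak was listed, while the mutant line had 20 H3K27ac and 8 H3K4me1 peaks there against 24 and 19 in the WT line. The next held 18 peaks over 71.1 kb inside Zeb2, where the WT line had 9 H3K4me1 peaks and the mutant line 0. Around the annotated starts of Zeb2, H3K4me3 covered 14.9 kb in each line, so this difference lay further into the gene. The third held 12 peaks over Capn12 and Actn4, an actin crosslinker gene, with 21 WT and 6 mutant H3K4me1 peaks. In the mutant list the longest runs were of 7 peaks over Dkk1, a Wnt inhibitor, and Prkg1, a cyclic GMP kinase, on chromosome 19, and of 4 each over Tshz2 and Rorb. At the Dkk1 run the mutant line had 12 H3K27ac peaks and the WT line 1, and the WT line had 4 H3K27me3 peaks.

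Gene lists were described by H3K4me3 at the start and by the bases covered within 5 kb of it. Where no strand was given, bases within 5 kb of either gene end were counted, which leaves out the inside of long genes. Over all genes, 56.6% were marked in both lines, 1.26% in the WT line alone and 1.67% in the mutant line alone. The counts of each list are to be read beside these shares. Of all genes, 38.9% were less covered in the mutant line and 23.9% more, by at least 1 kb in 5.76% and 2.14%, and the median difference was 0 kb. Of the genes marked in either line, 61.9% were less and 38.0% more covered, and the median of the mutant less the WT value was -0.121 kb.

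Melanocyte genes were described because both lines are labelled as melanoma. Of 26 genes 12 had H3K4me3 at the start in both lines, beside 56.6% of all genes. Among them were Mitf, the melanocyte master regulator, with 2.45 and 2.34 kb, and Pmel, a melanosome fibre protein, with 2.96 and 2.89 kb. Sox10, Mlana, a melanosome protein, and Slc45a2, a pigment transporter, were marked in the mutant line alone, with 11.0, 0.912 and 0.740 kb covered against 0 kb each. These are 3 of the 26, beside 1.67% of all genes. The value for Sox10 is over the whole gene and its flanks, since its strand was not given. The Slc45a2 peak was weak (score 98.1) and did not cover a gene end. Mlph, which tethers melanosomes to myosin, had 1.48 and 3.39 kb. No peak was listed at the starts of Tyr, Tyrp1 and Dct, the enzymes of melanin synthesis, or of Kit and Ednrb, melanocyte receptors, in either line. Over the list, 8 genes were less and 8 more covered in the mutant line, beside 38.9% and 23.9% of all genes.

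Of 18 Schwann cell and glial genes 12 were marked in both lines, Lgi4 and Fabp7, a fatty acid binding protein, in the mutant line alone, and 4 in neither. Erbb3, the neuregulin receptor, had 5.96 and 9.82 kb, and Cdh19, a cadherin of Schwann cell precursors, 1.48 and 3.75 kb. S100b, a calcium-binding protein, had less cover in the mutant line, 5.06 and 2.03 kb. In all, 7 of the list were less and 8 more covered. Of 31 neural crest and dedifferentiation genes 28 were marked in both lines. In the mutant line 21 were less and 7 more covered, beside 61.9% and 38.0% of all marked genes. The largest difference was a gain at Sox9, with 4.47 and 7.85 kb. Wnt5a, a ligand of the invasive state, had 3.67 and 0.859 kb, Junb, an AP-1 subunit, 7.24 and 4.48 kb, and Tnc, the matrix protein tenascin C, 3.93 and 1.60 kb.

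Genes of the enzymes that place, remove and read the mark were in the same state in both lines. Of 18 H3K4 methyltransferase and COMPASS genes 15 had H3K4me3 at the start in both lines and none in 1 line alone. Coverage was 5.56 and 5.27 kb at Kmt2a, 5.06 and 4.75 kb at Kmt2b, and 4.43 and 4.39 kb at Kmt2c, the paralogue of Kmt2d. The largest difference was at Rbbp5, with 4.57 and 3.32 kb, and 13 of the 18 were less covered in the mutant line. All 19 genes of H3K4 demethylases and H3K4me3 readers were marked in both lines, and their differences were below 1 kb.

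Developmental genes differed in both directions. All 39 Hox genes lay under WT H3K27me3, and 7 of them had H3K4me3 at the start in both lines, 7 in the mutant line alone, 1 in the WT line alone and 24 in neither. Of all genes, 1.67% were marked in the mutant line alone. Of all genes with WT H3K27me3 at the start, 945 were marked in both lines, 126 in the mutant line alone, 66 in the WT line alone and 856 in neither. In the mutant line 3 Hox genes were less and 16 more covered. Hox genes of the mutant line alone were Hoxa4, Hoxa7, Hoxb9, Hoxc4, Hoxc5, Hoxd3 and Hoxd9, with mutant peaks of 0.527 to 0.909 kb, and neighbouring Hox genes can share a peak. Hoxc4 and Hoxd3 kept that state under each of 4 alternatives (a peak within 2.5 kb, a peak that covers the start, a score of at least 100, and lists of equal length), while the others lost it under at least 1. Hoxc9, of the WT line alone, lost its state under all 4. Hoxc6 had 0.868 and 2.72 kb. Of 58 other developmental regulators 39 were marked in both lines, Foxa2, an endoderm factor, and Irx2 in the mutant line alone, and Runx2, the bone regulator, and Tbx1 in the WT line alone. Runx2 had 4.07 and 0 kb around its annotated start. Further into the gene a peak was listed in both lines, with 6.98 and 5.76 kb and a score of 3100 in each. Tbx1 had 0.876 and 0.518 kb with a WT score of 72.4 and kept its state under 1 of the 4 alternatives, and Foxa2 under 3. Emx2 had 2.04 and 7.76 kb and Tbx20, a heart T-box gene, 4.78 and 8.003 kb, while Dlx1, a distal-less homeobox gene, had 6.43 and 3.54 kb.

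Signalling and cell cycle genes were mostly marked in both lines, and their counts of lower cover are to be read beside the 61.9% of all marked genes given above. Of 23 IGF and insulin genes 18 were marked in both lines and Igf2, the growth factor, Igfbp2 and Igfbp5, its binding proteins, in the WT line alone, with WT peaks of 1.25, 0.490 and 1.58 kb. Igf2 kept that state under all 4 alternatives, Igfbp5 under 3 and Igfbp2 under 2. Of this list 14 were less and 8 more covered. Igf2bp3, an RNA-binding protein gene, had 0.759 and 3.53 kb, Pik3r1, a PI3-kinase subunit, 9.60 and 7.53 kb, and Irs2, which relays insulin receptor signals, 6.46 and 4.74 kb. Of 20 MAPK feedback and AP-1 genes 19 were marked in both lines, 13 were less and 6 more covered, and the median difference was -0.409 kb. Dusp1, a MAP kinase phosphatase, had 5.02 and 3.52 kb, Etv4, an ETS factor, 4.96 and 3.46 kb, and Fos had more in the mutant line, 4.48 and 5.91 kb. Of 20 cell cycle and tumour suppressor genes 17 were marked in both lines and Mtap in the WT line alone, and 15 were less and 3 more covered. Cdkn1a, the p21 inhibitor, had 7.33 and 4.17 kb, and Ccnd3, cyclin D3, 8.44 and 6.77 kb.

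Metabolic and housekeeping genes were nearly all marked in both lines. Their counts of lower cover are likewise to be read beside the 61.9% of all marked genes. Of 53 cytosolic ribosomal protein genes all were marked in both lines, 27 less and 26 more covered, with no difference of 1 kb. Of 26 housekeeping genes 24 were marked in both lines and 16 were less and 9 more covered, with Actb, beta actin, at 7.68 and 5.89 kb. Of 24 glycolysis genes 23 were marked in both lines and 16 were less covered, among them Hk1, hexokinase 1, with 6.20 and 4.48 kb, and Eno3, a muscle enolase, with 6.63 and 4.97 kb. Respiratory chain and TCA cycle genes were even, with 10 less and 12 more covered of 24, and Atp5b, an ATP synthase subunit, had 3.87 and 5.17 kb. In antigen presentation and interferon response, Ifit3, an interferon-induced gene, was marked in the mutant line alone, with a score of 100 in a peak that did not cover the start, and 16 of 20 were marked in both lines.

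Markers of other cell types differed in how many were marked. Of 14 fibroblast genes 7 were marked in both lines, Fbln2 and Thy1 in the WT line alone and 5 in neither, beside 56.6% of all genes marked in both. Thy1 kept its state under 2 of the 4 alternatives. Col3a1, the collagen III chain, had 6.75 and 5.28 kb, Pdgfra, a growth factor receptor of mesenchymal cells, 6.11 and 6.05 kb, and Twist2, a mesenchymal transcription factor, 5.48 and 6.07 kb. Pdgfra and Twist2 also stand in the neural crest list. Dcn and Lum, matrix proteoglycans, and Dpt, dermatopontin, were at 0 kb in both. Col1a2, a collagen I chain, had 2.504 and 0 kb, and Col6a3, a collagen VI chain, 1.996 and 5.89 kb. Of 12 endothelial genes 4 were marked in both lines, with Pecam1 and Cdh5 at 0 kb, and of 15 immune genes 3, with Ptprc, the leukocyte antigen CD45, at 0 kb. Of 16 keratinocyte genes 4 were marked in both lines and Dsp, desmoplakin, Perp and Grhl3, a barrier regulator, in the mutant line alone, with 1.74, 0.954 and 1.06 kb covered against 0, 0 and 0.441 kb. Dsp and Perp kept that state under all 4 alternatives and Grhl3 under 2. The keratin genes Krt5 and Krt14 were at 0 kb in both lines, and all of Dsp, Perp and Grhl3 had WT H3K27me3 at the start. What other cells contribute to either line was not tested.

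**Figure D5:**
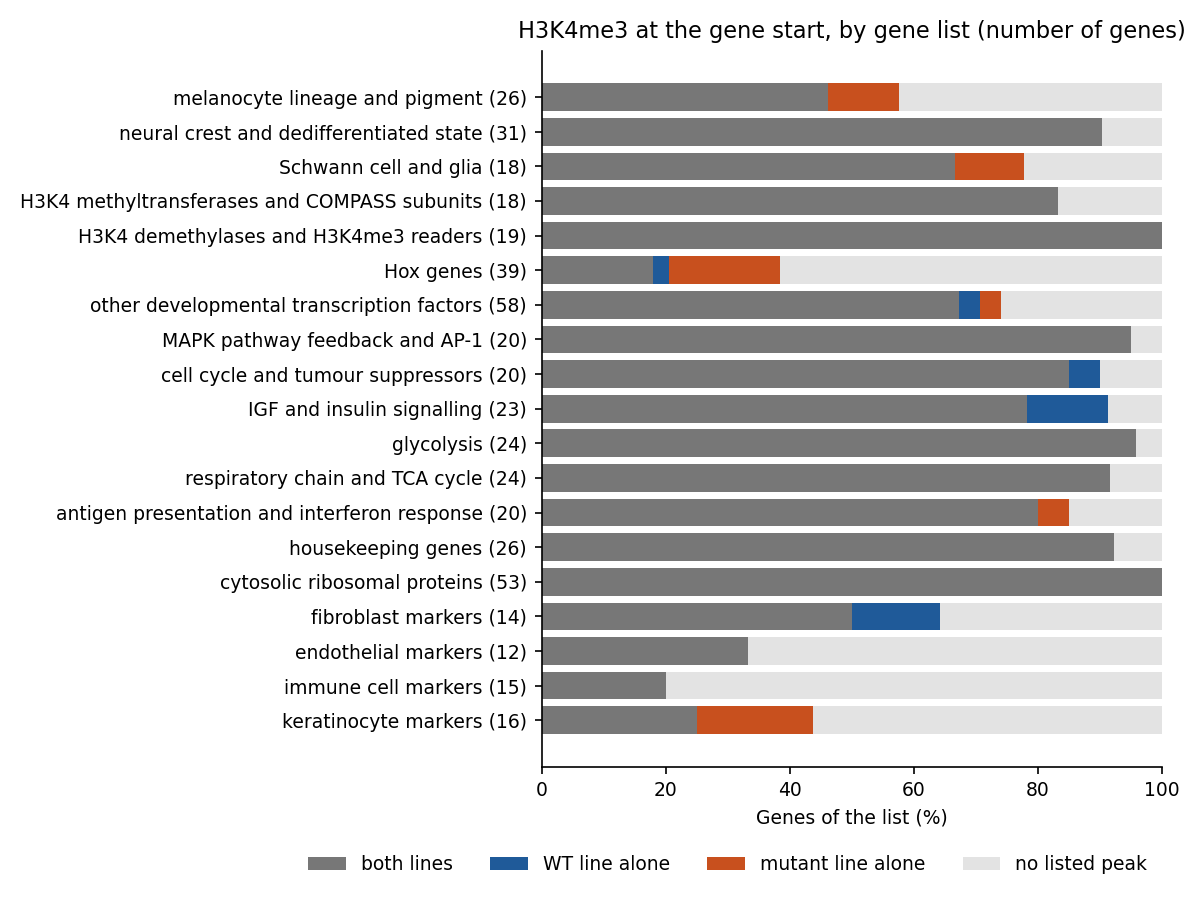
Share of the genes of each list (x axis, %, number of genes in brackets) with an H3K4me3 peak within 1 kb of the start in both lines, the WT line alone, the mutant line alone or neither. The 53 ribosomal protein genes were all marked in both lines. In the mutant line alone 7 of 39 Hox genes and 3 of 16 keratinocyte genes were marked, beside 1.67% of all genes.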

How the data were processed

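ChIP-seq was done on 2 mouse melanoma cell lines with 1 library per line and mark. The genome build was mm10, and the tools named were MACS2, FastQC and MultiQC, all per the submitters' processing notes. The H3K4me3 lists are named as those of an older MACS, so which version called them is unclear. Aligner, read filters and depth are not named there. The authors deposited 1 peak list per library, and the H3K4me3 lists hold positions and a score per peak, used only to rank or filter peaks within a list. The lists of the other marks also hold the authors' fold enrichment over control and −log10 p and q values, which were not used, only their positions. The mutant H3K27me3 list was called against the WT H3K27me3 library, per the file name as deposited, and was not used.

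Peaks on chromosomes 1 to 19 and X were compared with Python 3.11.15, pandas 2.3.3, numpy 2.4.6 and scipy 1.17.1. A counterpart overlaps by at least 1 bp, and lengths and positions are 1-based on mm10. Gene starts came from RefSeq tables of GRCm38.p6, with 17274 of 21631 protein-coding genes having an annotated start and the other 4357 taken by both gene ends. The place of a peak was set by 34328 protein-coding and lncRNA genes. Shares have Wilson 95% intervals and medians have binomial order intervals, which cover counting error only. The overlap functions were tested on simulated peaks.

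Genes named were Kmt2d, the 10 genes with the highest scores at starts of each line alone, the 10 largest losses and gains of width, the 5 widest domains, the 3 longest runs of peaks of 1 line, and from each list the members whose state differed and up to 3 whose cover differed most. Further list members (such as Mitf, Pmel, Tyr, Kmt2a, Kmt2c, Krt5 and Dcn) were named for their known role after their values were seen. Some members that this rule selects are not reported here. Members and lists were chosen with earlier results of these data known. Alternatives covered the overlap rule, a score of at least 100, lists of equal length, joined peaks, chromosomes, domain width and the distance from the start.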

Additional observations from a re-analysis of the deposited data

Results flagged for a closer look

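H3K4me3 peaks on chromosome Y, which the comparison does not use, were listed in the mutant line, 5 peaks against 0 in the WT line. They lay together between positions 90799191 and 90808355, beside Gm33272, with widths of 0.665 to 1.26 kb and scores of 56.4 to 137. The median score of the mutant list was 1218. The origin of these peaks and the sex of either line were not tested.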

How the results depend on the processing

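Each comparison rests on 1 library per line, so its spread between replicates is unknown, and depth was not given. No paired analysis was possible because each line had 1 library per mark and no test was run. Of 67 values under alternatives, 43 stayed inside the interval of the reported value or, for gene counts, within 1.5 times of it, and 24 did not. No alternative run reversed a direction. The share of WT peaks with a mutant peak was 75.7% within 1 kb, 69.2% at 50% cover, 80.6% at a score of at least 100, 86.2% in lists of equal length and 76.1% with peaks joined. The share of mutant peaks with a WT peak was 92.7%, 90.0%, 93.4%, 87.3% and 92.3% under these, and 92.3% without chromosomes 10 and 19. Mutant peaks per 100 WT peaks were 85.5 at a score of at least 100, 100 by construction in lists of equal length and 83.0 joined, and covered bases were 87.6 and 91.6 per 100 under the first pair. The width ratio was 0.967 at 50% cover, 0.954 joined and 0.956 without chromosomes 10 and 19. At 5 kb, 59.3% of WT and 80.1% of mutant domains met one as broad in the other line, and 87.9% of mutant domains did with peaks joined. In lists of equal length 168 genes were marked in the WT and 558 in the mutant line alone. With annotated starts only, an alternative chosen after seeing the data, these counts were 193 and 291.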
